A study of Mus musculus with 6 samples.

Results

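The specific and gelatinase granules of the neutrophil store lactoferrin, the cathelicidin and several other antimicrobial proteins together with matrix metalloproteinases, and 10 genes for such proteins were described here: Ltf, Camp, Ngp, Lcn2, Mmp8, Mmp9, Mmp25, Cd177, Pglyrp1 and Itgb2l. Every probe set annotated to exactly 1 of these symbols was taken, which gave 12 probe sets for 9 of the 10 genes, out of 45101 probe sets in all, and 18193 genes had a probe set of their own. Mmp25 was not analysed here. The 9 genes with a probe set all passed the filter on low signals and were tested among 10960 genes. The tested arrays were 3 of phd3 null mice and 3 of wild-type mice (bl6 in the source labels), all on a C57 background. Phd3, now named Egln3, encodes an oxygen-dependent prolyl hydroxylase, and how the null allele was made is not stated in the labels, nor are the ages and sexes of the mice. Neutrophils were enriched from the blood of single mice by removing other cells on magnetic beads, and both genotypes were held for 4 h at 3% oxygen before total RNA was taken. By the labels every sample was hypoxic, and normal oxygen was not analysed here.

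Neutrophils make their granules in sequence as they mature in the marrow: azurophil granules at the promyelocyte stage, specific granules after them, gelatinase granules later still, and secretory vesicles last. The proteins made at each stage fill the granule formed at that stage, so most granule messenger RNA (mRNA) is transcribed before the cell enters the blood, and what a blood neutrophil holds is largely a remnant. The transcription factor C/EBP epsilon is required for the specific granule genes, and in mice without myeloid HIF-1 alpha, the hypoxia-inducible factor subunit that prolyl hydroxylases mark for degradation, neutrophils hold less cathelicidin. These statements are background and were not measured here.

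The RefSeq promoter table (build GRCm38.p6, mouse) held 9 of the 10 promoters, all but that of Mmp9, each running from 250 bases before the annotated start to 50 bases after it. Those shown are of Cd177 and Itgb2l, the genes whose 3 phd3 null signals all exceeded the 3 wild-type signals, and of Camp and Ngp, the genes that were lower in phd3 null in each same-numbered pair. Camp, Ngp and Ltf lie on chromosome 9, with 8 protein-coding genes between Camp and Ngp and 20 between Ngp and Ltf in that assembly. Each is written 5' to 3' on the strand of the gene, with capitals at matches to TTNNGNAA, a loose form of the C/EBP motif, on either strand.
Cd177 (chr7:24760262-24760561, minus strand): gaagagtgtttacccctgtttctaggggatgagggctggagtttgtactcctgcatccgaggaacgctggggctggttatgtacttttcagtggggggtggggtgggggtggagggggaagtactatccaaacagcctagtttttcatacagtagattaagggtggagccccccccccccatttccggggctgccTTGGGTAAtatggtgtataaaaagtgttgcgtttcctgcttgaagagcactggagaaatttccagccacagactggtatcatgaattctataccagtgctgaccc
Itgb2l (chr16:96443565-96443864, minus strand): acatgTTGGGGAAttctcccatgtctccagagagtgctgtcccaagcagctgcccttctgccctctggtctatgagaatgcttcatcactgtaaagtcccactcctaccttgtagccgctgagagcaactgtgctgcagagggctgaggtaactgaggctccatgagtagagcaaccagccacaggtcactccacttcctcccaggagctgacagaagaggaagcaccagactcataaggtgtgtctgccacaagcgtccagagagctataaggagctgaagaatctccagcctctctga
Camp (chr9:109849407-109849706, minus strand): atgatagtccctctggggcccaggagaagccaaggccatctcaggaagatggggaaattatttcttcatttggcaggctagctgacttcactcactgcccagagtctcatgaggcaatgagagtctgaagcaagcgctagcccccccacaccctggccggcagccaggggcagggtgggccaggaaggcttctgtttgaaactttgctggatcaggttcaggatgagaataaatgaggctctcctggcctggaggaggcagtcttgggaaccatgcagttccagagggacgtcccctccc
Ngp (chr9:110419558-110419857, plus strand): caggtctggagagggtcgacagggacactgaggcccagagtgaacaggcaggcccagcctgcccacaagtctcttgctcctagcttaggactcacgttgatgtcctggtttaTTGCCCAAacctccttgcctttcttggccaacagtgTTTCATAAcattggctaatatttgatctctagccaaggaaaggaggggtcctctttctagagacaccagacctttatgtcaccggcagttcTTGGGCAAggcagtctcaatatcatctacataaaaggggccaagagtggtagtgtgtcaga
A match was found in 6 of the 9 promoters of these genes, against 40.7% of all 32851 promoters in the table. Cd177 had 1 match, ending 48 bases before the start, Itgb2l had 1 and Ngp had 3, and Camp had no match in this window. The core of the PU.1 motif, GAGGAA, was found in 7 of the 9 promoters and in 28.3% of all promoters. ACGTG, the core of the hypoxia response element, was found on either strand in 2 of the 9 (Ngp and Pglyrp1) and in 19.6% of all promoters. No match of 1 motif overlapped a match of another in these promoters, and the matches are letters in a sequence, not sites of binding.

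The arrays were of even scale but not of even likeness. The median signal per array was 51.7 to 64.2 in phd3 null and 49.4 to 60.3 in wild-type samples. The replicate 3 arrays resembled the rest least. Their log2 signals had a median correlation of 0.740 (phd3 null) and 0.771 (wild type) with those of the remaining arrays, and for the other 4 arrays this was 0.794 to 0.812. Summed signal of 5 B cell markers was 2902.2 and 2203.1 in these 2 arrays and 205.7 to 473.6 in the other 4. Bnip3 and Ldha, which hypoxia induces, read low on both replicate 3 arrays, although every array carries the hypoxia label. The cause of these low readings was not tested. Bnip3 was at 202.3 (phd3 null) and 195.7 (wild type) there and at 2575.4 to 4817.4 on the other 4 arrays. Ldha was at 1166.5 and 895.9 there and at 4149.7 to 4997.2 on the other 4. The heat shock gene Hspa1a was at 1157.9 (phd3 null) and 1175.1 (wild type) on the replicate 3 arrays and at 67.2 to 171.3 on the rest. Fitted differences of the granule genes are also given without these 2 arrays. The targeted gene Egln3 was at 29.6 to 87.2 on the phd3 null arrays and at 2088, 1733.9 and 327 on the wild-type arrays 1 to 3. Xist on arrays 1, 2 and 3 read 203.4, 72.9 and 98.5 (phd3 null) or 292, 1180.4 and 1061 (wild type). For Y-linked Eif2s3y these were 576.2, 585.4 and 144.3 (phd3 null) or 558.4, 54 and 38.7 (wild type). Between same-numbered arrays the log2 differences were -0.49 (Xist) and 0.04 (Eif2s3y) in pair 1. They were larger in size in pair 2 (-3.75 and 3.10) and pair 3 (-3.23 and 1.55). Sex-linked signals were thus more alike in pair 1 than in pairs 2 and 3. The part of sex in the results was not tested. Of 10 neutrophil markers outside the granule genes 7 had a probe set and all 7 passed the filter. Among them were S100a8 (11102.8 to 20428.6 in phd3 null, 17949 to 25479.7 in wild type) and Csf3r (1281.9 to 5118.4 in phd3 null, 1745.7 to 2787 in wild type). Cxcr2 was at 25.6 in phd3 null sample 3 and at 227 to 978.9 on the other arrays. By fitted values 2 of the 7 were higher and 5 lower in phd3 null, and 0 passed in either fit. The monocyte marker Csf1r was at 3537.6 to 10857.8 in phd3 null and 4048.6 to 11088.3 in wild type.

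The granule genes had no shared direction between the genotypes. In phd3 null neutrophils 5 of the 9 genes were higher and 4 lower by their fitted values, from a ratio of 0.683 to wild type for Camp to 1.70 for Cd177. The limma test over all genes, with Benjamini-Hochberg adjustment, called 0 of the 9 genes at an adjusted p under 0.05 (adjusted p = 0.9996 for each), and 0% of all 10960 genes. At an unadjusted p under 0.05 it named 1 of the 9, Cd177, against 1.74% of all genes, and with the replicate number as a block again 1 of the 9, Cd177, against 5.62%. At the adjusted threshold with that block, 0 of the 9 passed and 0.0182% of all genes did, namely Egln3 (adjusted p = 0.00140) and Ptgr1, a leukotriene B4 reductase gene (log2 fold change -1.69, adjusted p = 0.0128). Both calls were lost with the block and no trend in the prior variance (adjusted p = 0.896 for each), and that of Ptgr1 with the block and quantile normalization (adjusted p = 0.195). The median log2 fold change of the 9 genes was 0.14, on the log2(signal + 16) scale used throughout, and that of all genes tested was -0.01. Without both arrays of replicate 3, 7 of the 9 genes were higher (median 0.40) and 0 passed, with or without the block. Each array stands for 1 mouse per the labels, so the error is the spread between 3 mice of each genotype.

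**Figure D1:**
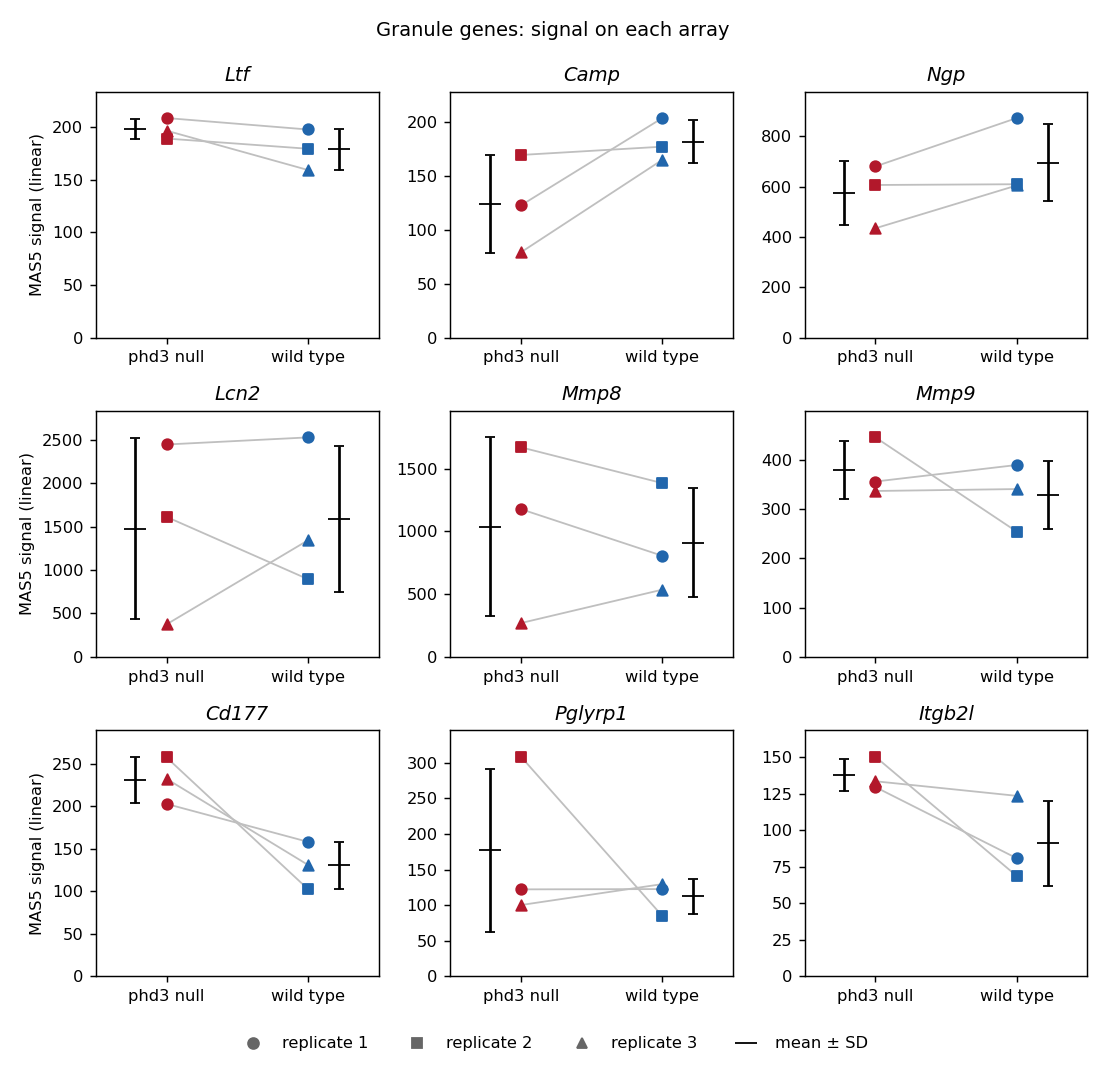
MAS5 signal (linear axis from 0) of each granule gene on the 3 phd3 null arrays (red, left) and the 3 wild-type arrays (blue, right). Symbols mark the replicate number, grey lines join same-numbered samples, and bars give the mean and SD (n = 3). Cd177 and Itgb2l are the genes whose groups do not overlap, while Lcn2 and Mmp8 are lowest on the phd3 null array of replicate 3.

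Cd177 and Itgb2l were the 2 genes whose signals did not overlap between the genotypes, and neither passed the test. Cd177 encodes a glycosylphosphatidylinositol-anchored protein of the specific granule membrane that reaches the cell surface and, in human neutrophils, holds proteinase 3 there. Its signal was 202.8, 257.5 and 232.3 in phd3 null samples 1 to 3, against 158.2, 102.6 and 131.1 in wild-type samples 1 to 3. Every phd3 null sample lay above every wild-type sample, and the means were 230.9 ± 27.4 and 130.6 ± 27.8 (SD, n = 3). The log2 fold change was 0.76 (SE 0.31, 95% interval 0.07 to 1.46; limma unadjusted p = 0.0350, adjusted p = 0.9996), with pair differences of 0.33, 1.21 and 0.76. With the block the unadjusted p was 0.0215 and the adjusted p 0.828. Leaving out both arrays of replicate 3 gave 0.77, and leaving out 1 array at a time gave 0.62 to 0.90, so no single array set its direction.

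Itgb2l encodes pactolus, a neutrophil surface protein of mice that resembles the integrin beta 2 chain. Its brightest probe set had signals of 129.7, 150.5 and 133.7 in phd3 null samples 1 to 3, against 80.9, 68.7 and 123.7 in wild-type samples 1 to 3. The groups did not overlap, although wild-type sample 3 came within 6 signal units of the lowest phd3 null sample. Its fitted log2 fold change was 0.55 (SE 0.34, 95% interval -0.20 to 1.31), with pair differences of 0.59, 0.98 and 0.10, and 0.78 without both arrays of replicate 3. The other 2 probe sets of Itgb2l were too dim to be tested. The first of them gave 20.8, 118.6 and 78.7 in phd3 null against 9.6, 70.3 and 25.3 in wild type, again higher in every pair, and the second 8.4, 22.1 and 7.4 against 12.3, 44.4 and 4.5, higher in 1 of 3 pairs. The probe sets therefore differ in direction, with mean pair differences of 0.79 and -0.23. Among the 9 genes the groups did not overlap with phd3 null higher in 2, against 3.9% of all genes tested, and with phd3 null lower in 0, against 3.02%. For 3 arrays against 3 the smallest p that an exact two-sided permutation test can give is 0.1, which both genes reached, so that test cannot pass 0.05 here.

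The cathelicidin and its relative had lower values in phd3 null neutrophils and did not pass the test. Camp encodes the only mouse cathelicidin, whose C-terminal peptide is cut free to kill bacteria. Its signal was 122.8, 169.6 and 79.2 in phd3 null samples 1 to 3, against 203.9, 177.3 and 165.1 in wild-type samples 1 to 3. Phd3 null samples 1 and 3 lay below every wild-type sample, and phd3 null sample 2 lay among the wild-type ones. The log2 fold change was -0.55 (SE 0.35, 95% interval -1.33 to 0.23), so that the interval spans 0.399-fold to 1.17-fold of the wild-type level, and -0.36 without both arrays of replicate 3. Ngp, the neutrophilic granule protein gene, whose product is related to the cathelicidin pro-region, had 680.2, 606.3 and 434.3 in phd3 null against 872.4, 609.3 and 604.5 in wild type. The phd3 null value was lower in all 3 pairs, by next to nothing in pair 2 (log2 differences -0.35, -0.01 and -0.46). Its log2 fold change was -0.27 (SE 0.32), -0.18 without both arrays of replicate 3 and -0.09 without phd3 null sample 3, the sample with the lowest signal of both genes.

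Ltf, which encodes the iron-binding lactoferrin that defines specific granules, was the steadiest member. Its signal was 208.7, 189.2 and 196.7 in phd3 null samples 1 to 3, against 197.8, 179.5 and 159.3 in wild-type samples 1 to 3. The 6 values span 1.31-fold, the least of the 9 genes, where Lcn2 spans 6.74-fold. On the log2 scale Ltf differed by 0.14 (SE 0.29, 95% interval -0.51 to 0.79), higher in 3 of 3 pairs by 0.07, 0.07 and 0.28, and the difference was 0.07 without both arrays of replicate 3. Counting genes that kept 1 direction in all pairs, 3 of the 9 were higher in phd3 null (Ltf, Cd177 and Itgb2l) against 12.6% of all genes, and 2 were lower (Camp and Ngp) against 13%.

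Lcn2 and Mmp8 varied widely within each genotype and did not pass the test. Lcn2 encodes lipocalin 2, which binds bacterial siderophores and is also induced by interleukin 1 in many cells. Its signal was 2443.5, 1610.6 and 374.5 in phd3 null samples 1 to 3, against 2525.1, 894.5 and 1341 in wild-type samples 1 to 3. Mmp8, the neutrophil collagenase of specific granules, had 1177.4, 1670.4 and 269.9 in phd3 null against 805.8, 1384.8 and 536 in wild type. The phd3 null sample of replicate 3 was the lowest of the 6 for both genes, far under the other phd3 null samples. The log2 fold changes were -0.34 (SE 0.66) for Lcn2 and -0.05 (SE 0.63) for Mmp8, and both turned positive without phd3 null sample 3 (0.45 and 0.72) or without both arrays of replicate 3 (0.40 and 0.40). None of these values passed (adjusted p from 0.891 to 1 over the alternatives run for these 2 genes).

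The array of phd3 null sample 3 was the lowest of the 6 for 4 of the 9 genes (Camp, Ngp, Lcn2 and Mmp8), and wild-type sample 2 for another 4 (Mmp9, Cd177, Pglyrp1 and Itgb2l). Summed over the 9 genes, the signal was 5443.3, 5408.2 and 2157.6 in phd3 null samples 1 to 3, against 5356.3, 3755.7 and 3531 in wild-type samples 1 to 3. The low sum of phd3 null sample 3 came mostly from Lcn2 and Mmp8. In phd3 null samples 1 to 3 Lcn2 was at 2443.5, 1610.6 and 374.5, and Mmp8 at 1177.4, 1670.4 and 269.9. The sum therefore does not describe the list as a whole. The summed signal of the 7 neutrophil markers was likewise lowest in phd3 null sample 3, at 26304, with 40303 and 49298 in the other phd3 null samples and 43589 to 56963 in the wild-type ones. B cell markers were highest in that sample, and Bnip3, Ldha and Hspa1a on the replicate 3 arrays differed from the rest as given above. The part of these in the results was not tested. Not every member was low in phd3 null sample 3: Ltf, Cd177 and Itgb2l lay 0.48, 0.85 and 0.61 SDs above their means over the 6 arrays. Its marker sum was mostly S100a8 (11102.8) and S100a9 (11843.6). Il1r2 was higher there (1187.2) than in phd3 null samples 1 and 2 (727.1 and 642.4), and the remaining markers were lower. For the genes low there, fewer neutrophils in the isolate and less granule mRNA per neutrophil cannot be told apart in bulk samples.

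**Figure D2:**
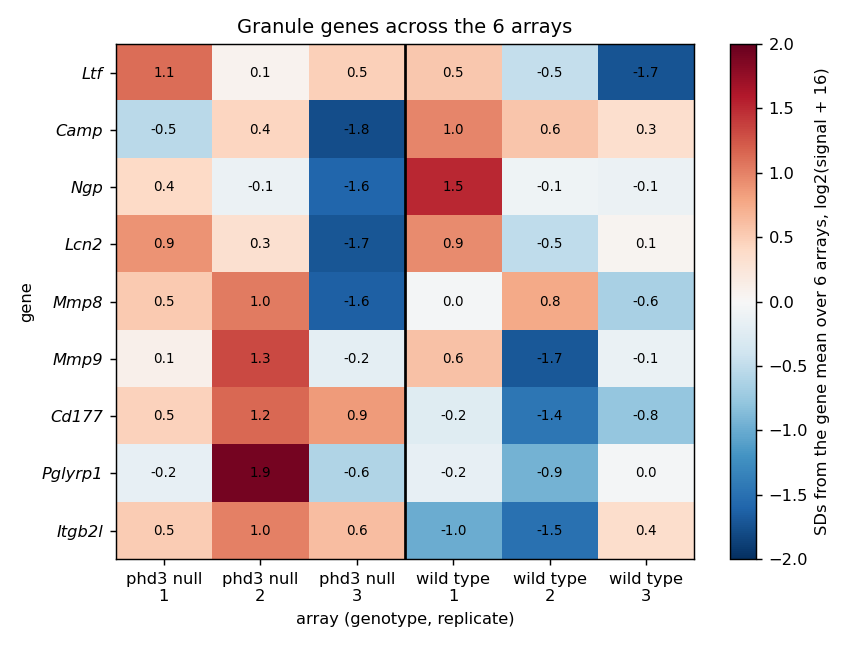
Signal of the 9 granule genes (rows) on the 6 arrays (columns, phd3 null left of the line and wild type right of it), in SDs from the mean of the gene over the 6 arrays on the log2(signal + 16) scale. Camp, Ngp, Lcn2 and Mmp8 are lowest in phd3 null sample 3, and Mmp9, Cd177, Pglyrp1 and Itgb2l are lowest in wild-type sample 2 and highest in phd3 null sample 2.

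By their brightest probe sets Mmp9 and Pglyrp1 were higher in phd3 null in pair 2 alone, and neither passed the test. Mmp9 encodes gelatinase B, the enzyme that names the gelatinase granules. Its brighter probe set gave 356.1, 445.7 and 336.9 in phd3 null samples 1 to 3, against 389.7, 254.3 and 340.8 in wild-type samples 1 to 3, and the groups overlap. Mmp9 had a log2 fold change of 0.21 (SE 0.31), with pair differences of -0.12, 0.77 and -0.02, and 0.32 without both arrays of replicate 3. Its second probe set gave 346.7, 408.2 and 173.5 against 271, 157.2 and 353.3, a similar log2 fold change of 0.22 (SE 0.42) built from other pair differences (0.34, 1.29 and -0.96). The probe sets thus disagree in sign in pair 1.

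Pglyrp1 encodes a peptidoglycan recognition protein that is bactericidal once released. Its signal was 122.1, 308.4 and 100.1 in phd3 null samples 1 to 3, against 122.5, 84.7 and 129.5 in wild-type samples 1 to 3. Phd3 null sample 2 stood alone above the other 5 arrays, which lay between 84.7 and 129.5. Pglyrp1 differed by 0.45 on the log2 scale (SE 0.43), 0.84 without both arrays of replicate 3 and 0.00 without phd3 null sample 2. In pair 2, 7 of the 9 granule genes were higher in phd3 null (median 0.77), against 4 in pair 1 (median 0.00) and 3 in pair 3 (median -0.33), where 49.5% to 49.8% of all genes were higher in each pair.

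**Figure D3:**
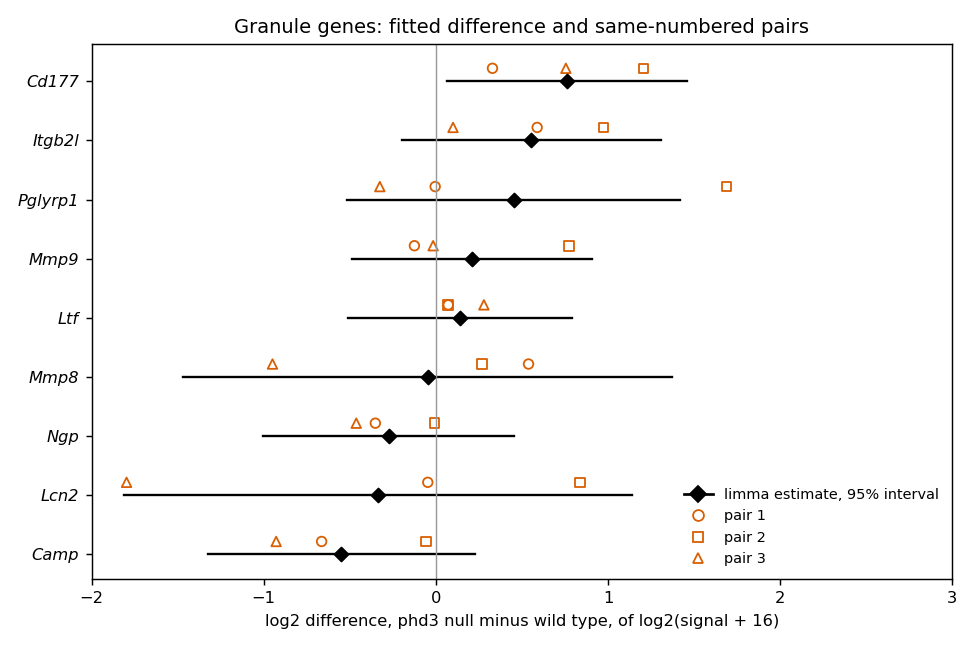
Log2 difference, phd3 null minus wild type, of log2(signal + 16) for each granule gene. Black diamonds and lines are the limma estimate with its 95% interval, and open symbols are the 3 same-numbered pairs. Only the interval of Cd177 lies above 0 (0.07 to 1.46), before any adjustment for the number of genes tested, and pair 2 gives the highest difference of 7 of the 9 genes.

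**Figure D4:**
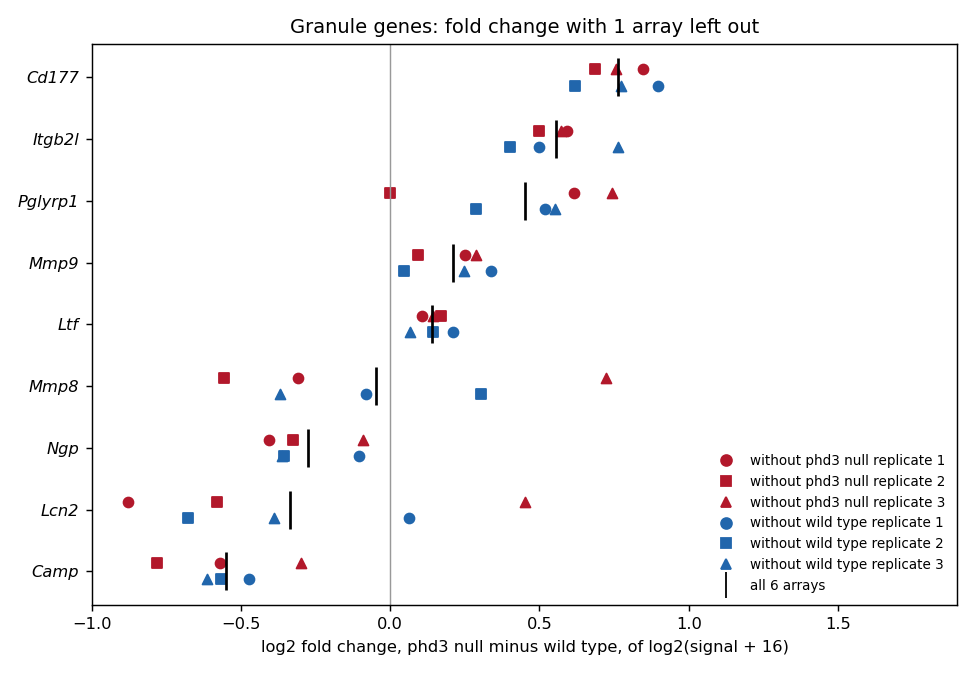
Fitted log2 fold change, phd3 null minus wild type, of each granule gene with all 6 arrays (black bar) and with each array left out in turn (symbols by the replicate left out, red for phd3 null and blue for wild type). Cd177 stays between 0.62 and 0.90, whereas Lcn2 and Mmp8 cross 0.

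Of 16 other genes whose proteins travel in the same granules 14 were tested, and 0 passed in either fit. By their fitted values 3 were higher and 11 lower in phd3 null, with a median log2 fold change of -0.09, where 49.4% of all genes were higher. With quantile normalization 6 were higher and 8 lower (median -0.04). The split depended on the arrays and settings used. Without phd3 null sample 3, 9 were higher and 5 lower (median 0.05). Without wild-type sample 1, 6 were higher and 8 lower (median -0.04), and with array quality weights 7 and 7 (median 0.00). Without wild-type sample 3 the split was wider, with 2 higher and 12 lower (median -0.58). Without both arrays of replicate 3 it was 7 and 7 (median 0.00). The member of smallest p was Slpi, which encodes an inhibitor of neutrophil elastase. Its signal was 3686.3, 2602.1 and 675.9 in phd3 null samples 1 to 3, against 9032.8, 4482.2 and 1701.6 in wild-type samples 1 to 3. Within every pair the phd3 null sample had the lower signal, although the groups overlap because replicate 3 was low in both genotypes. The log2 fold change was -1.13 (SE 0.72; limma adjusted p = 0.9996, and 0.130 with the replicate block, where its unadjusted p was 8.33e-05). Adam8, a surface metalloproteinase gene, differed by -0.58 (SE 0.51) and Slc11a1, the divalent metal transporter gene NRAMP1, by -0.74 (SE 0.77), both lower in every pair. With the block their limma unadjusted p were 0.0157 and 0.00227 (adjusted p = 0.828 and 0.586). In all, 4 of the 14 were lower in every pair and 0 higher, against the 13% and 12.6% of all genes given above.

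Azurophil granule genes, transcribed earlier in maturation, were measured in 9 of 12 cases and tested in 6. Mpo, Elane and Prtn3, encoding myeloperoxidase, neutrophil elastase and proteinase 3, were too dim to be tested, Elane with 9, 55.5 and 106.9 in phd3 null and 7.5, 79.9 and 19.1 in wild type. Of the 6 tested 4 were higher and 2 lower (median 0.36, and 0.27 with the same split without both arrays of replicate 3), 0 passed in either fit, and the members of smallest p were Gusb (0.42, SE 0.34), Srgn, the granule proteoglycan serglycin (-0.43, SE 0.36), and Ms4a3 (0.36, SE 0.39). Of 6 tested secretory vesicle genes 1 was higher and 5 lower by their fitted values (median -0.26), but 3 and 3 without phd3 null sample 3 (median -0.05) or without both arrays of replicate 3 (median -0.06). Those of smallest p were Cd14 (-0.79, SE 0.51), Cr1l (-0.52, SE 0.39) and Cd93 (0.27, SE 0.34). With the block the limma unadjusted p was 0.00248 for Cd14, 0.0497 for Cr1l and 0.371 for Cd93 (adjusted p = 0.603, 0.883 and 0.946). Of 7 transcription factor genes tested 2 were higher and 5 lower (median -0.09), but 4 higher and 3 lower without phd3 null sample 3 (median 0.07). They were Cebpa, Cebpb, Cebpd, Gata1, Klf5, Runx1 and Spi1, and the median of -0.09 was the value of Gata1. Without both arrays of replicate 3 the median was -0.21. Among them were Cebpb at -0.55 (SE 0.54), Klf5 at -0.29 (SE 0.33) and Cebpa at -0.44 (SE 0.72). With the block their limma unadjusted p were 0.0181, 0.438 and 0.262 (adjusted p = 0.828, 0.958 and 0.917). Cebpe, the gene of C/EBP epsilon, was not analysed here. Of 12 tested exocytosis genes 10 were higher and 2 lower (median 0.14), and 7 of 11 were higher with quantile normalization. This too depended on the arrays used. Without phd3 null sample 2, 3 of 11 were higher (median -0.05), and without wild-type sample 3, 5 of 11 (median -0.04). Without phd3 null sample 1 it was 6 of 12 (median -0.01), and 10 of 11 without both arrays of replicate 3 (median 0.23). Those of smallest p were Rab27a, the GTPase of granule docking, at 0.60 (SE 0.53), Vamp2 at 0.38 (SE 0.37) and the priming factor gene Unc13d at 0.78 (SE 0.84). Unc13d was near the filter, with 11.7, 115.6 and 119.6 in phd3 null samples 1 to 3 against 8.6, 16.7 and 104.8 in wild type. Of the metalloproteinase inhibitors and partners 3 were tested, Timp3 at 0.27 (SE 0.43), Cd44 at -0.26 (SE 0.41) and Timp2 at -0.16 (SE 0.37), and all 3 were higher without phd3 null sample 3 or without wild-type sample 1. In these lists 0 genes passed, with or without the block, and differences between the lists were not tested. At a limma unadjusted p under 0.05 without the block they held 0 genes, against 1.74% of all genes. With the block 2 of 6 secretory vesicle genes and 1 of 7 transcription factor genes were under it, against 5.62% of all genes. So were 3 of the 14 other specific or gelatinase granule genes. The azurophil, exocytosis and inhibitor lists held 0.

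**Figure D5:**
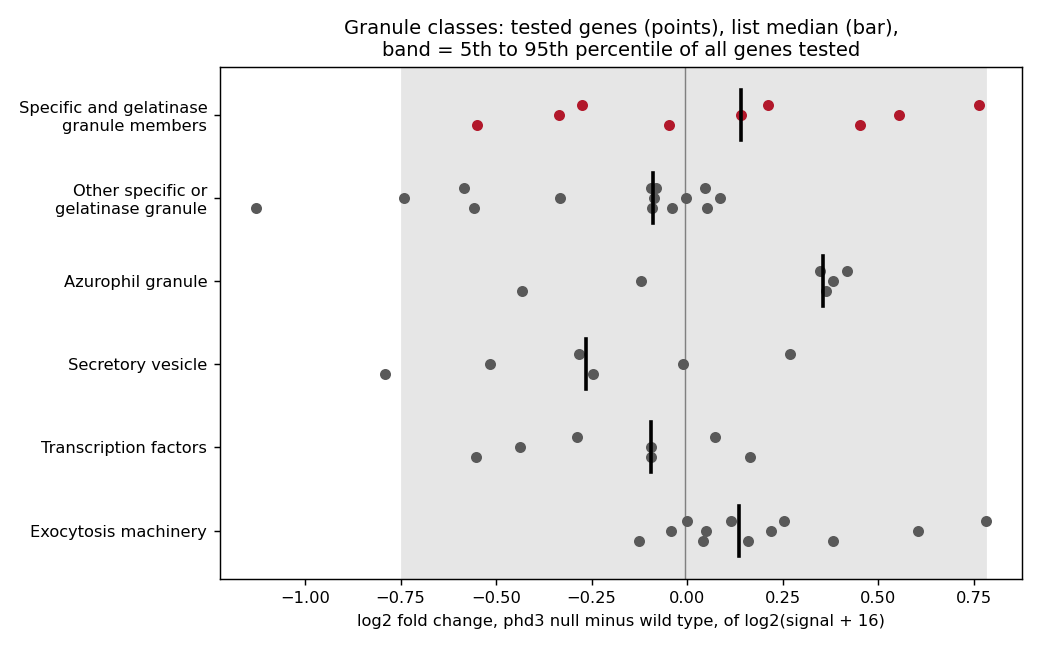
Log2 fold change, phd3 null minus wild type, of each tested gene in the granule lists (points, red for the 9 granule genes described here), with the median of each list (black bar). The grey band runs from the 5th to the 95th percentile of all 10960 genes tested (-0.75 to 0.78) and the grey line is their median. Slpi, among the other specific or gelatinase granule genes, is the point far left of the band.

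Summed signals of markers of other cells overlapped between the genotypes for every list, but those of natural killer cells were lower in phd3 null in each pair. Genes of cycling cells, which would mark marrow precursors that still transcribe granule genes, summed to 368.4 to 492.2 in phd3 null and 294.9 to 612.5 in wild type, with 0 of 5 tested genes called and a median log2 fold change of 0.42. That median was 0.16 without phd3 null sample 3, and -0.28 over the 2 genes tested when probe sets were averaged. Monocyte markers summed to 5242.4 to 13434 in phd3 null and 5744.2 to 13387 in wild type, and eosinophil and basophil markers to 200.7 to 307.9 and 155.3 to 554.4. T cell markers summed to 164.3 to 468.8 in phd3 null and 115.4 to 366.6 in wild type, and 5 natural killer cell markers to 399.1, 2402.5 and 1818.9 in phd3 null samples 1 to 3, against 1179.8, 4989.4 and 2588.3 in wild-type samples 1 to 3. All 5 of these had a negative fitted value (median log2 fold change -1.02), and 0 passed in either fit. With the block Gzma, Klre1 and Klra8 had limma unadjusted p of 0.000248, 0.00355 and 0.00539 (adjusted p = 0.247, 0.667 and 0.756). Gzma was the largest part of the sum on every array. Prf1 and Ncr1 were mixed over the pairs (block unadjusted p = 0.576 and 0.625). Prf1 was higher in phd3 null in pair 1 (73.3 against 64.7). Ncr1 was higher there in pair 1 (61 against 56.8) and pair 3 (73.8 against 50). Platelet markers summed to 433.4 to 726.6 in phd3 null and 398 to 475.6 in wild type, and erythroid markers to 777.7 to 6893.8 and 2613.8 to 5996.5. No value of any of these markers was at 0, and their part in the granule gene results was not tested.

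The profile of the 9 genes over the arrays was summarised by the mean of their standardised log2 signals, at 0.37, 0.79 and -0.62 on the phd3 null arrays 1 to 3 against 0.35, -0.59 and -0.30 on the wild-type arrays 1 to 3. The 5 tested genes outside the list whose log2 signal was most like this profile over the 6 arrays were Gnai2, an inhibitory G protein subunit gene of chemoattractant receptor signalling (r = 0.990), Cd82 (0.983), Sh3yl1 (0.979), Trim30d (0.975) and Iqsec1 (0.972). Gnai2 had 2629.3, 3076.7 and 1870.9 on the phd3 null arrays 1 to 3, against 2605.6, 2026.6 and 2193.1 on the wild-type arrays 1 to 3, high and low on the same arrays as the profile. These correlations describe 6 arrays that share scaling and the replicate structure, and they are the highest of 10951 genes.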

How the data were processed

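The authors deposited linear MAS5 intensities, as the submitters' processing notes name the tool, for 6 one-colour Affymetrix arrays of biotin-labelled RNA. The MAS5 version and a genome build are not given in the sources used here. No detection calls were used, and the number of arrays limits the precision. Scaling by the authors made the trimmed mean of the deposited signals equal on every array.

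Of 45101 probe sets, 64 controls were left out, 34945 had 1 gene symbol in the platform annotation, 932 had several and 9160 were unnamed here. A gene was represented by its probe set of highest mean log2(signal + 16), and genes with a mean below the median of all non-control probe sets (5.90, a signal of 43.6) were not tested. Genotypes were compared with limma 3.58.1 in R 4.3.3 (lmFit, eBayes with a trend, two-sided, no block), adjusted by Benjamini-Hochberg over 10960 genes. Fold changes are phd3 null minus wild type and understate changes of dim genes.

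Sample numbers 1 to 3 recur in both genotypes and same-numbered samples share a code in the source labels. Samples were paired here by these numbers. Deviations from the group mean correlated between same-numbered arrays at 0.292, 0.151 and 0.474, each over 0.1. The other 6 correlations ran from -0.363 to 0.177, the highest between phd3 null sample 2 and wild-type sample 1, above the value of pair 2. They therefore cannot decide whether samples 1 and 2 pair as numbered, which limits the pair differences and the block fit. The block fit is given beside calls it changes and for some other genes whose unadjusted p it lowers. It is not given for every gene named.

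Members and lists were chosen with earlier results of these data known. Of 138 listed genes 17 had no probe set of their own here. Named genes are all members, Egln3, genes past the threshold, the 5 most alike profiles and up to 3 genes of smallest p per granule list. The code was tested on simulated data.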

Additional observations from a re-analysis of the deposited data

How the results depend on the processing

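Of the 9 granule genes, 0 were called with all arrays and under each of the 20 alternatives run, 3 of them chosen after seeing the data, so neither the replicate block nor any other setting changed a call of theirs. The direction of Ltf, Camp, Ngp, Mmp9, Cd177, Pglyrp1 and Itgb2l held in all 20. For Pglyrp1 it held only in sign, at 0.0002 without phd3 null sample 2. Mmp9 fell to 0.05 without wild-type sample 2, and Ltf to 0.07 without wild-type sample 3. The median of the 9 stayed above 0, from 0.00 to 0.45 with 1 array left out. The number of granule genes higher was 5 to 7. Cd177 ran from 0.61 with a pseudocount of 64 to 0.90 without wild-type sample 1. Its unadjusted p ran from 0.0158 with array weights to 0.115 without wild-type sample 2, and was also above 0.05 without phd3 null sample 2 (0.0995), phd3 null sample 3 (0.0554), wild-type sample 3 (0.0589) or both arrays of replicate 3 (0.0530). Over all genes, 0 were called with all arrays, 2 with the replicate block, 1 without both arrays of replicate 3 (44 with the replicate block added), 2 with the block and a pseudocount of 1, 1 with the block and quantile normalization, 0 with the block and no trend in the prior variance, and 0 or 1 with 1 array left out (1 without wild-type sample 3).

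Lcn2 turned positive with array quality weights (0.17), without both arrays of replicate 3 (0.395 with and without the block), and with 1 array left out ran from -0.88 to 0.45 (0.06 without wild-type sample 1). Mmp8 did so with array quality weights (0.28), without replicate 3 (0.403) and ran from -0.56 to 0.72 (0.30 without wild-type sample 2). Averaging probe sets reversed Cr1l (0.0012), Cd93 (-0.17), Rab27a (-0.030) and Timp2 (0.021), and array weights reversed Timp2 (0.018). With 1 array left out, signs turned within the ranges of Slc11a1 (-1.49 to 0.0032), Cebpa (-1.13 to 0.22), Cd44 (-0.44 to 0.035), Timp2 (-0.37 to 0.12) and Rab27a (-0.017 to 1.15). The causes were not tested. Signals near or under the filter, as in the dim Itgb2l probe sets, limit what can be said of them.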
